A study of Mus musculus with 10 samples.

Results

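The CD28 family and other checkpoint receptors of T cells were described in splenic CD4+ T cells of DBA/1 mice, an inbred strain. The group was given as a list of 8 genes: Cd28, Ctla4, Btla, Tigit, Cd226, Cd96, Havcr2 and Cd200. Of these, 7 had at least 1 probe set among the 17097 genes of the array annotation used here, and 6 passed the filter on dim genes and were tested among 11037 genes. Tigit was not analysed here, since no probe set is annotated to it alone. Havcr2 lay above the median of its array on only 1 of 10 arrays and was set aside as dim. Cd28 had 2 probe sets, and the other 6 genes had 1 each.

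Expression was measured on 10 Affymetrix mouse arrays. CD49b+ cells (3 arrays) and CD25+ cells (3 arrays) were sorted from the CD4+ splenocytes of injected mice. CD4+ cells of injected mice (2 arrays) and CD4+ cells of naive mice (2 arrays) were the comparators. Injected mice had received 500000 immature dendritic cells, which present antigen but are not yet activated, into the peritoneum 7, 5 and 3 days before they were killed, and naive mice none. CD49b is the integrin alpha 2 chain, encoded by Itga2, and CD25, the product of Il2ra, is the alpha chain of the interleukin 2 receptor. The labels give neither the age of the mice nor whether the CD4+ arrays held all CD4+ cells or those left after both subsets were removed. Cells of several mice were pooled for sorting, and nothing says that the arrays of a group came from separate pools, so p-values measure the spread between these arrays, which may be technical. Values are on the log2 scale, on which a difference of 1 is a 2-fold difference, and each difference is given with its standard error from limma, a linear model fitted across all genes. A gene was called at a Benjamini-Hochberg adjusted p under 0.05.

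A T cell needs a costimulatory signal beside its antigen receptor, and CD28 gives it on binding CD80 or CD86 on an antigen-presenting cell. CTLA-4 binds the same ligands more tightly and takes them from CD28, and regulatory T cells carry it constantly, under the control of the transcription factor FOXP3. BTLA is an inhibitory receptor for HVEM, the product of Tnfrsf14. Another system turns on CD155, the product of Pvr, which CD226 reads as an activating signal and TIGIT and CD96 compete for. TIM-3, the product of Havcr2, is an inhibitory receptor of effector and exhausted T cells and of myeloid cells, and CD200 is a surface ligand that restrains cells carrying its receptor CD200R1.

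CD25+ cells had more Ctla4, Cd200, Cd226 and Cd96 transcript than CD4+ cells of injected mice, by 4.77-fold, 2.72-fold, 1.77-fold and 1.62-fold. CD49b+ cells had more Cd226 and Cd96, by 1.97-fold and 1.34-fold, and less Btla, by 1.70-fold. Set against CD25+ cells, CD49b+ cells had less Ctla4, Cd200, Btla and Cd96. Cd28 was not called in these comparisons, except in CD49b+ against CD25+ cells with the replicate number as a block. The plot of levels by array shows each gene.

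**Figure D1:**
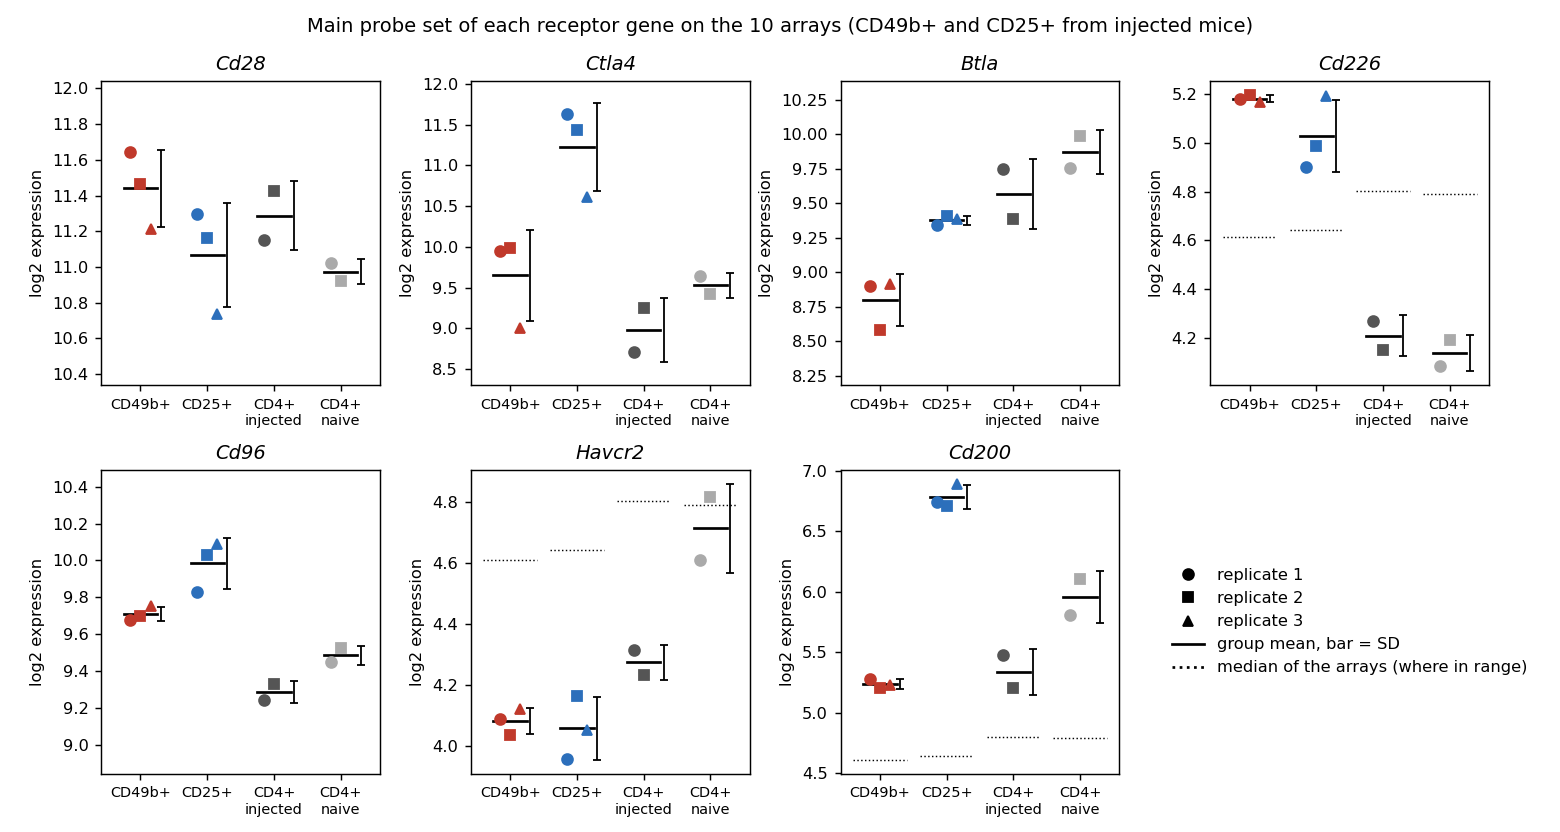
Log2 expression (vertical axis) of the main probe set of 7 genes on the 10 arrays, by group, with 1 point an array (circle, square and triangle for replicates 1, 2 and 3), the group mean as a line and the SD as a bar. The 3 CD25+ arrays lie above all others for Ctla4 and Cd200, the 3 CD49b+ arrays lie below all others for Btla, and the 6 subset arrays lie above the 4 CD4+ arrays for Cd226 and Cd96.

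The promoters of the 3 genes that most separated the subsets from each other are shown because forkhead proteins, FOXP3 among them, bind the core AAACA, which reads TGTTT on the other strand. Each window runs from 250 bases before the start of the gene to 50 after it, written 5′ to 3′ on the strand of the gene, from RefSeq on GRCm38.p6, with forkhead cores in capitals. The windows are chr1:60908775-60909074 on the + strand for Ctla4, chr16:45409004-45409303 on the - strand for Cd200 and chr16:45224087-45224386 on the + strand for Btla.
Ctla4: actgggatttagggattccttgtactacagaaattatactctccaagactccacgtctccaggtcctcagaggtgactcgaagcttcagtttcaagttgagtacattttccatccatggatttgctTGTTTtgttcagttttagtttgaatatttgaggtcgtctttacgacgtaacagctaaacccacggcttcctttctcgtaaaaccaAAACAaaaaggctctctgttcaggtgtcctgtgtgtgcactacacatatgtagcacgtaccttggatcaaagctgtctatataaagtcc
Cd200: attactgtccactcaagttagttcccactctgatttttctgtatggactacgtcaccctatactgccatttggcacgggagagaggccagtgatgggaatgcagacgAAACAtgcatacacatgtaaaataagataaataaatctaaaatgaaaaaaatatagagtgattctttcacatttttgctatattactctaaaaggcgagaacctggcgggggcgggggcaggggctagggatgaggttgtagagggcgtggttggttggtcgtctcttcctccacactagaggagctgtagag
Btla: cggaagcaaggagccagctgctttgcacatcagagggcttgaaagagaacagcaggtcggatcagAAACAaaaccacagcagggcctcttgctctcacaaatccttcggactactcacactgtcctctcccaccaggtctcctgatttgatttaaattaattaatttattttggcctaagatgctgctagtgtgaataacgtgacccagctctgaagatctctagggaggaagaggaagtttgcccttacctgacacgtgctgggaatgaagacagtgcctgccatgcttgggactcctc
The Ctla4 window held 2 forkhead cores and those of Cd200 and Btla 1 each. Over 32851 mouse promoters of the same length, 50.5% held at least 1 such core and 22.0% at least 2, so that a match is common. The core of NFAT sites, GGAAA or TTTCC, was found once in the Ctla4 window and in neither of the others, against 61.3% of all promoters, and overlapped no forkhead core. The palindrome TTCNNNGAA, which STAT proteins bind, was found in 0 of these 3 windows and in 8.3% of all promoters. These matches describe the letters of the windows and do not show that a factor binds there.

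Cd28, the costimulatory receptor, was high on every array. It stood at 11.64, 11.47 and 11.21 in CD49b+ cells, at 11.30, 11.16 and 10.74 in CD25+ cells, at 11.15 and 11.42 in CD4+ cells of injected mice and at 11.02 and 10.92 in those of naive mice. The arrays of the 3 groups from injected mice overlapped one another. The difference was 0.15 ± 0.17 in CD49b+ against CD4+ cells of injected mice (95% interval -0.24 to 0.54, adjusted p = 0.481) and -0.22 ± 0.17 in CD25+ against the same CD4+ cells (-0.61 to 0.17, adjusted p = 0.347). In CD49b+ against CD25+ cells it was 0.37 ± 0.16 (0.02 to 0.73, adjusted p = 0.102). Same-numbered CD49b+ and CD25+ arrays deviated together. With the replicate number as a block, fitted over all 10 arrays with the CD4+ arrays included, the CD49b+ against CD25+ difference was called (adjusted p = 0.016). Between CD4+ cells of injected and naive mice the difference was 0.31 ± 0.19 (adjusted p = 0.583). Ordered by mean, CD49b+ cells came first, then CD4+ cells of injected mice, CD25+ cells and CD4+ cells of naive mice, and no neighbours in that order were called different. The other probe set of Cd28 gave 0.21, -0.20, 0.40 and 0.23 in these 4 comparisons in the same order, none of them called.

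Ctla4, the inhibitory counterpart of Cd28, varied most of the group. It stood at 9.95, 9.99 and 9.0 in CD49b+ cells, at 11.64, 11.44 and 10.62 in CD25+ cells, at 8.70 and 9.25 in CD4+ cells of injected mice and at 9.64 and 9.42 in those of naive mice. All CD25+ arrays lay above all others, while 1 CD49b+ array, replicate 3, lay between the CD4+ arrays of injected mice. CD25+ cells were higher than CD4+ cells of injected mice by 2.25 ± 0.35, or 4.77-fold (adjusted p = 0.000883), and CD49b+ cells were lower than CD25+ cells by 1.58 ± 0.31, or 2.99-fold (adjusted p = 0.00417). CD49b+ cells differed from CD4+ cells of injected mice by 0.67 ± 0.35, which was not called (95% interval -0.12 to 1.46, adjusted p = 0.133). Without CD49b+ replicate 3 that difference was 0.99 and called (adjusted p = 0.0258), and with both arrays numbered 3 left out it was 0.99 as well (adjusted p = 0.00312). Against CD4+ cells of naive mice the differences were 0.12 ± 0.35 in CD49b+ cells (adjusted p = 0.798) and 1.70 ± 0.35 in CD25+ cells (adjusted p = 0.00507). Injected against naive mice, CD4+ cells differed by -0.55 ± 0.38 (-1.41 to 0.31, adjusted p = 0.659). In order of level, CD25+ cells stood above CD49b+ cells, and these, CD4+ cells of naive mice and CD4+ cells of injected mice were not called different from their neighbours.

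Replicate 3 of both subsets stood apart in its spiked poly-A transcripts. Spiked poly-A transcripts averaged 8.66 in CD49b+ replicate 3 and 8.51 in CD25+ replicate 3, against 5.52 to 6.98 on the other 8 arrays. Among the receptor genes, replicate 3 was the lowest array of its group for Ctla4 and Cd28 in both subsets and for Cd226 in CD49b+ cells. It was the highest for Cd96 in both subsets, for Btla in CD49b+ cells and for Cd226 and Cd200 in CD25+ cells. Array medians lay between 4.61 and 4.65 in the subsets and between 4.79 and 4.81 in CD4+ cells, and centring the arrays on them raised the median difference over all genes by 0.19 for CD49b+ and by 0.16 for CD25+ cells, each against CD4+ cells of injected mice. The signal at the end of the Gapdh transcript minus that at its start ran from 0.23 to 0.69 on subset arrays. On CD4+ arrays it ran from -0.01 to 0.26. The same measure for Actb ran from 0.44 to 0.67 on subset arrays and from 0.42 to 0.56 on CD4+ arrays. The part of RNA quality in the differences was not tested. No pair of arrays held identical values, and the highest correlation between 2 arrays was 0.9979.

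Btla, the receptor for HVEM, was lowest in CD49b+ cells. It stood at 8.90, 8.58 and 8.92 in CD49b+ cells, at 9.34, 9.40 and 9.38 in CD25+ cells, at 9.75 and 9.39 in CD4+ cells of injected mice and at 9.76 and 9.98 in those of naive mice. The CD49b+ arrays lay below all others, and the CD25+ arrays overlapped the CD4+ arrays of injected mice. Btla fell by 0.77 ± 0.14 in CD49b+ cells against CD4+ cells of injected mice, or 1.70-fold (adjusted p = 0.00119), and was 0.58 ± 0.12 lower in CD49b+ than in CD25+ cells, or 1.49-fold (adjusted p = 0.00574). The difference of -0.19 ± 0.14 in CD25+ against CD4+ cells of injected mice was not called (95% interval -0.50 to 0.11, adjusted p = 0.296), whereas against CD4+ cells of naive mice it was -0.49 ± 0.14 and called (adjusted p = 0.0199). CD4+ cells of injected against naive mice differed by -0.30 ± 0.15 (adjusted p = 0.458). Neighbours in the order from CD4+ cells of naive mice through CD4+ cells of injected mice to CD25+ cells were not called different, and the step from CD25+ to CD49b+ cells was. Tnfrsf14, its ligand gene, was 0.24 ± 0.09 lower in CD49b+ cells than in the CD4+ cells of injected mice (adjusted p = 0.0489), a call that did not hold in several other settings. The difference was -0.09 with quantile normalization (adjusted p = 0.421), -0.05 with centred arrays (adjusted p = 0.668) and -0.14 without CD4+ replicate 2 of injected mice (adjusted p = 0.324). Without CD49b+ replicate 1 or 3 the adjusted p was 0.128 or 0.0946.

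Cd226, the activating receptor for CD155, was higher in both subsets. It stood at 5.18, 5.20 and 5.17 in CD49b+ cells, at 4.90, 4.99 and 5.19 in CD25+ cells, at 4.27 and 4.15 in CD4+ cells of injected mice and at 4.08 and 4.19 in those of naive mice. All 6 subset arrays lay above all 4 CD4+ arrays. The difference from CD4+ cells of injected mice was 0.97 ± 0.10 in CD49b+ cells, or 1.97-fold (adjusted p = 3.48e-05), and 0.82 ± 0.10 in CD25+ cells, or 1.77-fold (adjusted p = 0.000171). CD49b+ and CD25+ cells differed by 0.15 ± 0.09 (95% interval -0.04 to 0.35, adjusted p = 0.219), and CD4+ cells of injected and naive mice by 0.07 ± 0.11 (adjusted p = 0.889). The gene passed the filter through its 6 subset arrays alone. On the CD4+ arrays it lay between the 26.6th and 33.4th percentile of all probe sets, so its fold there may be a lower bound, and with no filter the adjusted p was 3.56e-05 in CD49b+ and 0.000158 in CD25+ cells.

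Cd96, which competes for CD155, was also higher in both subsets, with CD25+ cells first. It stood at 9.68, 9.70 and 9.75 in CD49b+ cells, at 9.83, 10.03 and 10.09 in CD25+ cells, at 9.24 and 9.33 in CD4+ cells of injected mice and at 9.45 and 9.52 in those of naive mice. No array of a subset reached down to a CD4+ array, and the 2 subsets did not overlap either. Cd96 was higher than in CD4+ cells of injected mice by 0.42 ± 0.09, or 1.34-fold, in CD49b+ cells (adjusted p = 0.00362) and by 0.70 ± 0.09, or 1.62-fold, in CD25+ cells (adjusted p = 0.000335). Against CD4+ cells of naive mice the 0.22 ± 0.09 in CD49b+ cells was not called (adjusted p = 0.0689), and Cd96 was 0.50 ± 0.09 higher in CD25+ cells (adjusted p = 0.0028). CD49b+ cells were 0.27 ± 0.08 lower than CD25+ cells (adjusted p = 0.0306). That last call was lost when any 1 of 5 of these 6 arrays was left out, with an adjusted p of 0.0815, 0.0753 and 0.056 without CD49b+ replicates 1, 2 and 3 and of 0.0797 and 0.0976 without CD25+ replicates 2 and 3. CD4+ cells of injected against naive mice differed by -0.20 ± 0.10 (adjusted p = 0.468).

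Havcr2 was dim throughout. It stood at 4.09, 4.04 and 4.12 in CD49b+ cells, at 3.96, 4.16 and 4.05 in CD25+ cells, at 4.32 and 4.23 in CD4+ cells of injected mice and at 4.61 and 4.82 in those of naive mice. Both CD4+ arrays of naive mice lay above all others, and the 2 subsets overlapped. The highest value, of naive replicate 2, was at the 50.8th percentile of its array and the lowest value at the 29.7th. In the fit with no filter, CD49b+ and CD25+ cells differed from CD4+ cells of injected mice by -0.19 and -0.22 (adjusted p = 0.0813 and 0.0627), CD49b+ from CD25+ cells by 0.02 (adjusted p = 0.879) and CD4+ cells of injected from naive mice by -0.44 (adjusted p = 0.0832). Against CD4+ cells of naive mice the differences were -0.63 in CD49b+ cells (adjusted p = 0.000398) and -0.66 in CD25+ cells (adjusted p = 0.000521).

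Cd200, the ligand of CD200R1, was high in CD25+ cells. It stood at 5.28, 5.20 and 5.23 in CD49b+ cells, at 6.74, 6.71 and 6.89 in CD25+ cells, at 5.47 and 5.20 in CD4+ cells of injected mice and at 5.81 and 6.11 in those of naive mice. The CD25+ arrays lay above all others, CD49b+ arrays overlapped the CD4+ arrays of injected mice, and the CD4+ arrays of naive mice lay between. CD25+ cells were higher than CD4+ cells of injected mice by 1.44 ± 0.12, or 2.72-fold (adjusted p = 1.62e-05), and CD49b+ cells were lower than CD25+ cells by 1.55 ± 0.10, or 2.92-fold (adjusted p = 5.25e-06). CD49b+ cells differed from CD4+ cells of injected mice by -0.10 ± 0.12 (95% interval -0.36 to 0.16, adjusted p = 0.479), but were 0.72 ± 0.12 lower than CD4+ cells of naive mice (adjusted p = 0.000804). CD25+ cells were 0.82 ± 0.12 higher than CD4+ cells of naive mice (adjusted p = 0.000599). The difference of -0.62 ± 0.13 between CD4+ cells of injected and naive mice lay at the threshold (-0.90 to -0.33, adjusted p = 0.0504). It was called with a filter at the 70th percentile, with centred arrays, with another prior and with array weights, at adjusted p between 0.0298 and 0.0499. In a fit of the CD4+ arrays alone it was not called. Leaving out single CD4+ arrays moved the difference between -0.77 and -0.47.

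**Figure D2:**
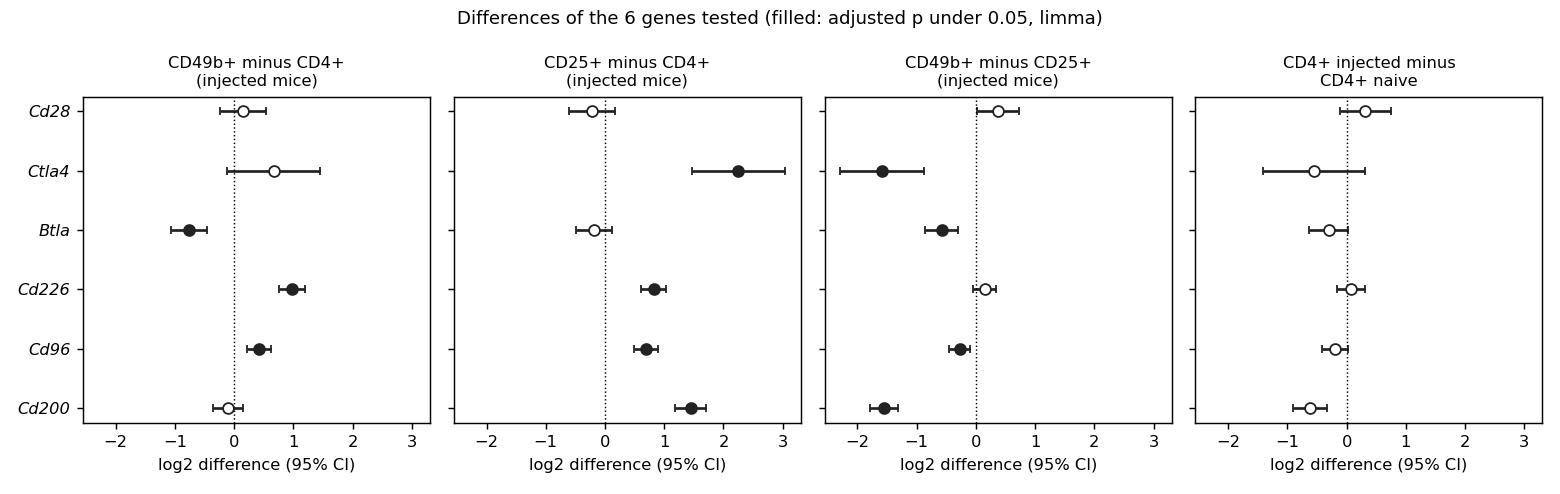
Log2 difference (horizontal axis, with its 95% interval from limma) of the 6 genes tested, in 4 comparisons, with filled points for an adjusted p under 0.05. Ctla4 and Cd200 lie to the right in CD25+ against CD4+ cells and to the left in CD49b+ against CD25+ cells, and no point is filled in CD4+ cells of injected against naive mice.

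Many genes of the array differed between these cells, and the receptor genes were read against that background. In CD49b+ against CD4+ cells of injected mice, 2 of the 6 genes tested were called higher and 1 lower, against 29.9% and 23.5% of all genes tested, or 53.4% either way. There 3 had arrays that did not overlap, against 70.3%. With the arrays centred on their medians, 78.3% of the genes called in that comparison were higher, against 56.0% without centring. In CD25+ against CD4+ cells, 4 were higher and 0 lower, against 20.8% and 17.8%, or 38.6% either way, and 4 did not overlap, against 58.9%. The share of all calls that were higher was 78.6% with centring and 53.9% without. These 2 comparisons share the CD4+ arrays of injected mice. In CD49b+ against CD25+ cells, 0 were higher and 4 lower, against 17.5% and 12.4%, or 29.9% either way, and 4 did not overlap, against 41.6%. In CD4+ cells of injected against naive mice, limma called 0 of 6 higher and 0 lower, against 0.0272% and 1.36% of all genes, or 1.39% either way, and 1 of 6, Cd200, had an unadjusted p under 0.05. There 5 did not overlap, against 48.5%.

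With CD4+ cells of naive mice as comparator, CD49b+ cells had 1 of the 6 genes higher, Cd226, and 2 lower, Cd200 and Btla. Of all genes tested 24.7% were higher and 22.9% lower, or 47.6% either way, and 5 of the 6 did not overlap, against 70.2%. CD25+ cells had 4 higher, namely Ctla4, Cd226, Cd200 and Cd96, and 1 lower, Btla, against 15.9% and 17.6%, or 33.5% either way, and 5 did not overlap, against 60.2%. Cd226 was 1.04 ± 0.10 higher in CD49b+ cells (adjusted p = 2.79e-05) and 0.89 ± 0.10 higher in CD25+ cells (adjusted p = 0.000127) than in CD4+ cells of naive mice, and Btla was 1.07 ± 0.14 lower in CD49b+ cells (adjusted p = 0.000193). Cd28 differed by 0.47 ± 0.17 in CD49b+ cells (adjusted p = 0.0507) and by 0.09 ± 0.17 in CD25+ cells (adjusted p = 0.717). Since Cd226 passed the filter only through the groups in which it is high, these counts are given as a description and not as support.

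Beside these genes, the transcripts of the sort markers and of other cell types were examined. Il2ra averaged 6.29 in CD49b+ and 8.83 in CD25+ cells, against 4.17 in both groups of CD4+ cells, where it lay below the array medians. Foxp3 averaged 6.45 in CD49b+ and 8.25 in CD25+ cells, against 4.64 in CD4+ cells of injected and 4.92 in those of naive mice. Itga2 averaged 5.78 in CD49b+ cells against 5.82 in CD4+ cells of injected mice and was not called (-0.05 ± 0.11, adjusted p = 0.717). It averaged 5.47 in CD25+ cells, with 0.31 ± 0.10 more in CD49b+ than in CD25+ cells (adjusted p = 0.0349) and a difference of -0.36 ± 0.11 in CD25+ against CD4+ cells of injected mice (adjusted p = 0.0247). All 7 genes of a regulatory T cell list were higher in either subset than in CD4+ cells of injected mice. Of all genes tested 29.9% were higher in CD49b+ and 20.8% in CD25+ cells. In CD49b+ against CD25+ cells 6 were lower, against 12.4% of all genes. The list holds Il2ra, a sort marker, so its calls in comparisons with CD25+ cells follow from the sort. Il2ra also passed the filter through the subset arrays alone, and the counts and the mean of the list include it. The mean of that list ran from 8.42 to 8.56 on CD49b+ arrays, from 9.87 to 10.15 on CD25+ arrays, from 6.64 to 6.94 in CD4+ cells of injected and from 7.33 to 7.46 in those of naive mice, which is the order of the group means of Ctla4 and Cd96. Its part in their differences was not tested. In arrays of bulk cells, fewer cells of a type and less RNA per cell cannot be told apart.

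T cell markers were high on all arrays, with 7 of 7 above the array medians in every group. Of 7 B cell markers, 2, 3, 1 and 1 lay above the medians on all arrays of CD49b+, CD25+, CD4+ injected and CD4+ naive cells, and Ms4a1, Cd79a, Ighm and Pax5 lay below in some array of every group. The mean of the B cell list ran from 4.56 to 4.62, from 4.77 to 4.85, from 4.70 to 4.79 and from 4.87 to 4.90 in these groups. Of 8 myeloid and dendritic cell markers, 3, 4, 5 and 5 lay above the medians, and the list mean ran from 4.63 to 4.68, from 4.54 to 4.65, from 4.99 to 5.03 and from 5.27 to 5.40. Itgam, Lyz2 and Cd14 were above the medians on all arrays in no group. The 5 others lay above the medians on all CD4+ arrays. Among them, Itgax, Flt3 and Adgre1 averaged 7.53, 6.19 and 6.12 in CD4+ cells of naive mice. In those of injected mice these genes averaged 6.41, 5.64 and 5.26. In CD4+ cells of injected against naive mice, where Cd200 and Havcr2 had negative differences, 2 of 5 myeloid and dendritic markers tested were lower, Itgax by 1.12 (adjusted p = 0.00228) and Adgre1 by 0.85 (adjusted p = 0.029). The others were Flt3 at -0.55, Csf1r at -0.09 and Zbtb46 at 0.03. Of 4 B cell markers tested 1 was lower, Cd22 by 1.02 (adjusted p = 0.00901), with Cd79b at -0.25, Blk at -0.04 and Cd79a at 0.08. In this comparison 1.36% of all genes tested were called lower and 0.0272% higher. Of 7 regulatory T cell markers 2 were lower and 0 higher, and of 7 T cell and 6 natural killer cell markers tested 0 were called. Of 7 follicular helper T cell markers, a class that carries CD200 and BTLA, 5 were lower and 0 higher there. Its mean ran from 6.97 to 7.10 in CD49b+ cells, from 7.60 to 7.77 in CD25+ cells, from 6.59 to 6.84 in CD4+ cells of injected and from 7.64 to 7.90 in those of naive mice. Natural killer cells carry CD49b, CD226 and CD96, and of 7 of their markers 5, 5, 4 and 4 lay above the medians on all arrays of CD49b+, CD25+, CD4+ injected and CD4+ naive cells, while Klrb1c did so in no group. The mean of that list ran from 6.04 to 6.37, from 5.13 to 5.54, from 5.39 to 5.51 and from 5.58 to 5.66 in these groups. Its genes did not move one way. In CD49b+ against CD4+ cells of injected mice 3 of 6 tested were higher and 2 lower, against 29.9% and 23.5% of all genes. The higher ones were Gzma at 3.97, Nkg7 at 2.78 and Ncr1 at 0.65. Prf1 at -1.10 and Eomes at -0.91 were the lower ones. Gzma and Ncr1 passed the filter through the subset arrays alone, so these counts are given as a description and not as support. Klrd1 differed by -0.39 and was not called. In CD25+ against CD4+ cells 2 were higher and 3 lower, against 20.8% and 17.8% of all genes. In CD49b+ against CD25+ cells 3 were higher and 0 lower, against 17.5% and 12.4%. The part of these cell types in the differences was not tested.

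**Figure D3:**
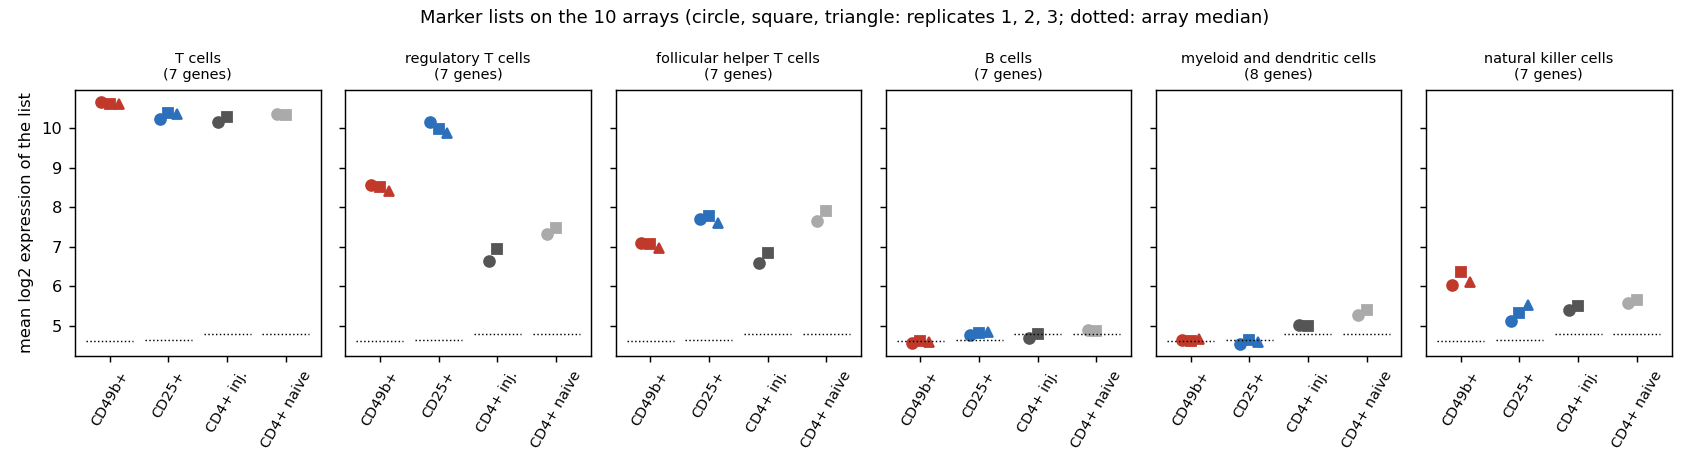
Mean log2 expression (vertical axis) of 6 marker lists on the 10 arrays, by group, with circle, square and triangle for replicates 1, 2 and 3 and a dotted line at the median of the arrays. The regulatory T cell list is highest in CD25+ cells and lowest in CD4+ cells of injected mice, and the B cell list lies near the array medians. The myeloid list lies near them in the subsets and above them in CD4+ cells, most in those of naive mice, at 5.27 to 5.40.

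Among 11 ligands and counter-receptors of these molecules, 9 were tested. In CD49b+ against CD4+ cells of injected mice 4 were higher and 3 lower, against 29.9% and 23.5% of all genes tested, with a median difference of 0.09 against 0.03. Cd200r1, the receptor of CD200, stood at 8.01, 7.87 and 8.13 in CD49b+ cells, against 6.70, 6.61 and 6.54 in CD25+ cells, 6.12 and 5.85 in CD4+ cells of injected mice and 6.39 and 6.53 in those of naive mice. The CD49b+ arrays lay above all others. It was 2.02 ± 0.11 higher in CD49b+ than in CD4+ cells of injected mice, or 4.05-fold (adjusted p = 9.81e-07), and 1.39 ± 0.10 higher than in CD25+ cells (adjusted p = 7.64e-06). The receptor was thus highest in the subset in which Cd200 itself was not raised. CD25+ cells had 0.63 ± 0.11 more Cd200r1 than CD4+ cells of injected mice (adjusted p = 0.00177), but 0.16 more than those of naive mice, which was not called (adjusted p = 0.309).

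Cd80, the shared ligand of CD28 and CTLA-4, was 1.11 ± 0.09 higher in CD49b+ cells (adjusted p = 7.79e-06) and 1.23 ± 0.09 higher in CD25+ cells (adjusted p = 7.02e-06), each set against CD4+ cells of injected mice. It averaged 5.75 in CD49b+ and 5.87 in CD25+ cells, against 4.63 in CD4+ cells of injected mice, where it lay below the array medians, so that its fold may be a lower bound. Like Cd226, Cd80 passed the filter through the 6 subset arrays alone, and with no filter the adjusted p was 6.84e-06 in CD49b+ and 6.29e-06 in CD25+ cells. Lgals9, which encodes galectin-9, a ligand of TIM-3, was 0.76 ± 0.23 higher in CD49b+ cells than in the CD4+ cells of injected mice, with an adjusted p of 0.0198, and 0.75 ± 0.21 higher than in CD25+ cells (adjusted p = 0.0214). The first of these was lost without CD4+ replicate 1 of injected mice (0.45, adjusted p = 0.189) or CD49b+ replicate 2 (0.0595) or 3 (0.0579). The second was lost without CD49b+ replicate 2 (0.0755) or 3 (0.0741) or CD25+ replicate 1 (0.0648) or 3 (0.0567). In CD25+ against CD4+ cells 2 of the 9 were higher and 1 lower, against 20.8% and 17.8% of all genes, with a median of 0.11 against 0.02. The lower one was Nectin1, a ligand of CD96 in mice (-0.47 ± 0.10, adjusted p = 0.00577). Against the same CD4+ cells, CD49b+ cells also had less Nectin1 (-0.43 ± 0.10, adjusted p = 0.00579) and less Pvr (-0.38 ± 0.09, adjusted p = 0.0068). With centred arrays neither was called in CD49b+ cells (adjusted p = 0.0638 and 0.107). Pvr was not called in CD25+ cells (-0.18, adjusted p = 0.15). In CD49b+ against CD25+ cells 2 were higher and 0 lower, against 17.5% and 12.4% of all genes (median -0.02 against 0.03). Cd86, the other ligand of CD28 and CTLA-4, was not called there by the main limma fit (-0.39, adjusted p = 0.0709). It averaged 4.46 in CD49b+ cells, below the array medians, and 4.85 in CD25+ cells. With the replicate number as a block, Cd86 was called lower (-0.39, adjusted p = 0.00801). It was also called with the mean of its probe sets (adjusted p = 0.00514) and in a fit of these 6 arrays alone (adjusted p = 0.0343). In CD4+ cells of injected against naive mice 0 were called by limma (median -0.08 against -0.03).

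Of 10 other coreceptors, 7 were tested. In CD49b+ against CD4+ cells of injected mice 4 were higher and 1 lower, against 29.9% and 23.5% of all genes, with a median of 0.48. In CD25+ against CD4+ cells 3 were higher and 1 lower, against 20.8% and 17.8%, with a median of 0.09. Icos, a costimulator of the CD28 family, stood at 10.67, 10.58 and 10.64 in CD49b+ cells, against 10.36, 10.36 and 10.40 in CD25+ cells, 9.24 and 9.37 in CD4+ cells of injected mice and 9.59 and 9.74 in those of naive mice. No 2 of these groups overlapped. Icos was 1.32 ± 0.08 higher in CD49b+ cells (adjusted p = 1.68e-06) and 1.07 ± 0.08 higher in CD25+ cells (adjusted p = 1.1e-05) than in CD4+ cells of injected mice. The 0.25 ± 0.07 by which CD49b+ exceeded CD25+ cells (adjusted p = 0.0237) was lost without CD49b+ replicate 1 (0.0691) or 3 (0.0643) or CD25+ replicate 1 (0.0607) or 2 (0.0558). It differed by -0.36 ± 0.09 in CD4+ cells of injected against naive mice (adjusted p = 0.0998).

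Pdcd1, the gene of the inhibitory receptor PD-1, depended on the comparator. It stood at 6.18, 6.11 and 6.08 in CD49b+ cells, at 7.04, 6.61 and 6.79 in CD25+ cells, at 5.45 and 5.36 in CD4+ cells of injected mice and at 6.96 and 7.38 in those of naive mice. The CD4+ arrays of injected mice lay below all others, and CD4+ cells of naive mice overlapped CD25+ cells. Pdcd1 was higher than in CD4+ cells of injected mice by 0.72 ± 0.14 in CD49b+ cells (adjusted p = 0.00232) and by 1.41 ± 0.14 in CD25+ cells (adjusted p = 6.77e-05). Against CD4+ cells of naive mice the sign turned, with -1.05 in CD49b+ cells (adjusted p = 0.000299) and -0.36 in CD25+ cells (adjusted p = 0.0804). In CD4+ cells it was 1.77 ± 0.16 lower in injected than in naive mice (adjusted p = 0.00228), and this call was lost in a fit of these 4 arrays alone (adjusted p = 0.0572). Pdcd1 was the 1 gene of the 7 called in that comparison, where the median was -0.28. Cd244a, a receptor of the SLAM family, differed there by -0.58 ± 0.12 and lay at the threshold (adjusted p = 0.0504). It was called with quantile normalization, centred arrays, another prior and array weights, at adjusted p between 0.0269 and 0.0477. In a fit of the CD4+ arrays alone it was not called. Leaving out single CD4+ arrays moved the difference between -0.77 and -0.40. Cd244a had passed the filter through the CD4+ arrays of naive mice alone. Cd244a, and Cd86 and Pik3cd in CD49b+ against CD25+ cells, were named after their values were seen.

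Cd160, another receptor for HVEM, was 2.0 ± 0.14 higher in CD25+ cells than in the CD4+ cells of injected mice, with an adjusted p of 7.66e-06, and CD49b+ cells were 1.40 ± 0.13 lower than CD25+ cells (adjusted p = 3.45e-05). It averaged 5.79 in CD49b+ and 7.19 in CD25+ cells, against 5.19 in CD4+ cells of injected mice. Vsir, which encodes the inhibitory protein VISTA, was 0.61 ± 0.12 lower in CD49b+ cells than in the CD4+ cells of injected mice, with an adjusted p of 0.00168. CD25+ cells were lower than the same CD4+ cells as well, by 0.71 ± 0.12 (adjusted p = 0.00111). CD49b+ and CD25+ cells differed in Vsir by 0.10, which was not called (adjusted p = 0.534). With the mean of all its probe sets that difference was 0.29 and called (adjusted p = 0.0141). Cd5, which dampens antigen receptor signals, was 0.39 ± 0.07 higher in CD49b+ than in CD25+ cells (adjusted p = 0.0021), where 2 of the 7 were higher and 2 lower, against 17.5% and 12.4% of all genes (median 0.10). Lag3 was called in none of the 4 comparisons, with differences of -0.16, -0.06, -0.10 and -0.12 in CD49b+ against CD4+, CD25+ against CD4+, CD49b+ against CD25+ and CD4+ injected against naive cells (adjusted p = 0.162, 0.658, 0.385 and 0.712). In CD49b+ against CD4+ cells of naive mice it was called lower (-0.28, adjusted p = 0.0275).

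Among 15 genes tested of 18 for signalling proteins below these receptors, 6 were higher and 3 lower in CD49b+ against CD4+ cells of injected mice, against 29.9% and 23.5% of all genes (median 0.05). In CD25+ cells 4 were higher and 3 lower, against 20.8% and 17.8% (median 0.03). Both totals lay near the shares of all genes called either way, 53.4% and 38.6%. Dok2, an adaptor that CD200R1 recruits, was 1.24 ± 0.10 higher in CD49b+ cells than in the CD4+ cells of injected mice, with an adjusted p of 1.22e-05, and 1.02 ± 0.09 higher than in CD25+ cells (adjusted p = 3.55e-05). It averaged 9.09 in CD49b+ and 8.07 in CD25+ cells, against 7.84 in CD4+ cells of injected mice. Inpp5d, which encodes the phosphatase SHIP-1, was higher by 1.00 ± 0.10 in CD49b+ cells (adjusted p = 3.27e-05) and by 0.62 ± 0.10 in CD25+ cells (adjusted p = 0.00096). Akt1, a kinase downstream of CD28, was 0.98 ± 0.11 higher in CD49b+ cells (adjusted p = 6.33e-05). Dok1, an adaptor related to Dok2, was 0.78 ± 0.10 higher in CD25+ cells (adjusted p = 0.000322). Pik3cd, a catalytic subunit of the kinase that CD28 recruits, was 0.57 ± 0.12 lower there (adjusted p = 0.00456). Both subsets shared these changes, with Dok1 at 0.83 ± 0.10 (adjusted p = 0.000138) and Pik3cd at -0.84 ± 0.12 (adjusted p = 0.000303) in CD49b+ cells. In CD49b+ against CD25+ cells 6 were higher and 0 lower, against 17.5% and 12.4% of all genes (median 0.04), among them Grb2, an adaptor of the CD28 tail (0.68 ± 0.10, adjusted p = 0.00095), and Akt1 (0.52 ± 0.10, adjusted p = 0.00278). Pik3cd was not called there by the main limma fit (-0.28, adjusted p = 0.0769). With the replicate number as a block it was called lower (-0.28, adjusted p = 0.0215), and also without CD25+ replicate 3 (adjusted p = 0.0412). In CD4+ cells of injected against naive mice limma called 0 of the 15 (median -0.08).

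CTLA-4 is mostly held inside the cell, and 6 genes of its traffic were tested of 7. In CD49b+ against CD4+ cells of injected mice 4 were higher and 0 lower, against 29.9% and 23.5% of all genes (median 0.38). One of the 4, Def6, was lost with quantile normalization (0.22, adjusted p = 0.101) and without CD4+ replicate 1 of injected mice (0.157) or CD49b+ replicate 1 (0.0567) or 2 (0.0579). In CD49b+ against CD25+ cells 4 were higher and 0 lower, against 17.5% and 12.4% (median 0.50). Rab11a, a GTPase of recycling endosomes, was 0.79 ± 0.12 higher in CD49b+ cells than in the CD4+ cells, with an adjusted p of 0.000372, and 0.58 ± 0.10 higher than in CD25+ cells (adjusted p = 0.00221). The call against CD25+ cells was lost with the mean of all its probe sets (0.34, adjusted p = 0.0867). Arf1, a GTPase of vesicle coats, was 0.57 ± 0.09 higher in CD49b+ cells than in the CD4+ cells, with an adjusted p of 0.000779, and Def6, which acts with RAB11 on CTLA-4 recycling, 0.58 ± 0.09 higher than in CD25+ cells (adjusted p = 0.00111). Trat1, an adaptor that helps bring CTLA-4 to the surface, was 0.76 ± 0.15 higher in CD49b+ than in CD25+ cells (adjusted p = 0.004). In CD25+ against CD4+ cells 1 gene was higher and 1 lower, against 20.8% and 17.8% of all genes (median 0.06). Trat1 was the lower one (-0.52 ± 0.17, adjusted p = 0.0331), a call that was lost in 4 fits with 1 array left out. The adjusted p was 0.184 and 0.0608 without replicates 1 and 2 of the CD4+ cells of injected mice and 0.0728 and 0.082 without CD25+ replicates 1 and 3. With the arrays centred the difference was -0.36 (adjusted p = 0.105).

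Lrba, which keeps CTLA-4 from degradation, was 0.42 ± 0.11 higher in CD49b+ (adjusted p = 0.0111) and 0.60 ± 0.11 higher in CD25+ cells (adjusted p = 0.00247) than in CD4+ cells of injected mice by its brightest probe set. With the mean of all its probe sets the differences were 0.00 (adjusted p = 0.979) and 0.12 (adjusted p = 0.444), so its probe sets disagreed. The CD49b+ call was also lost without CD4+ replicate 1 of injected mice (adjusted p = 0.0653). In CD4+ cells of injected against naive mice limma called 0 of the 6 (median -0.13).

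**Figure D4:**
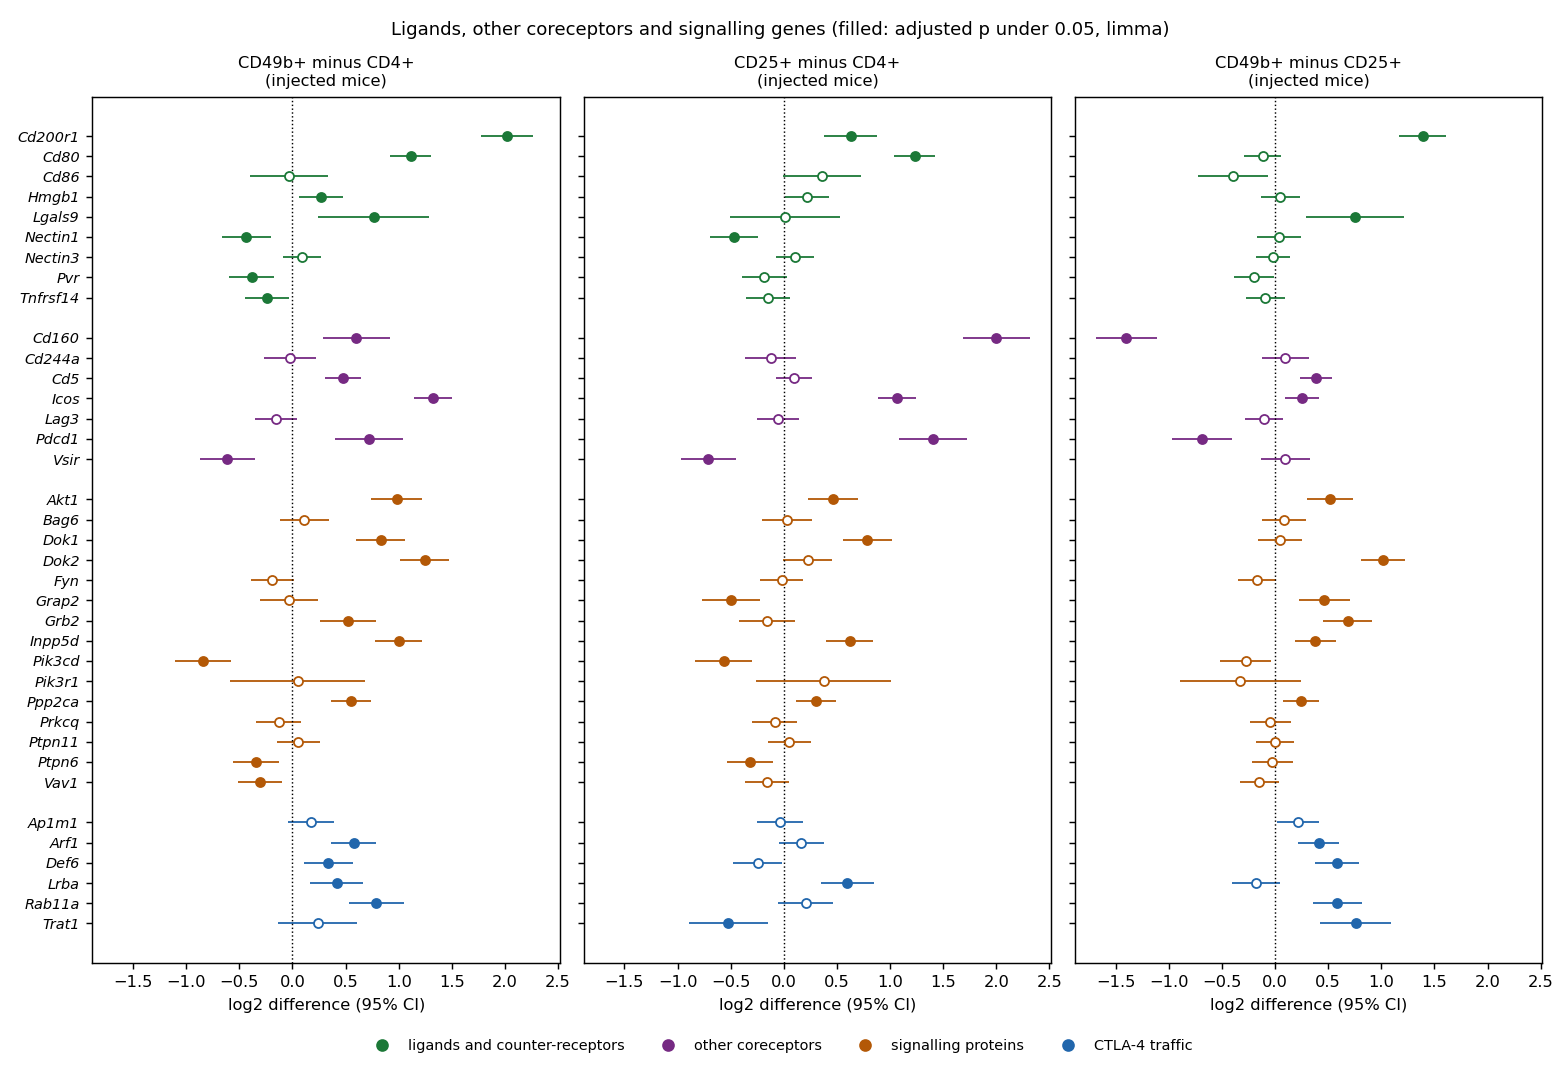
Log2 difference (horizontal axis, with its 95% interval from limma) of the tested genes of 4 lists, in colours by list, in CD49b+ against CD4+, CD25+ against CD4+ and CD49b+ against CD25+ cells, with filled points for an adjusted p under 0.05. Cd200r1 lies farthest right in the first panel at 2.02 and Cd160 farthest right in the second at 2.0 and farthest left in the third at -1.40.

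Genes whose profile over the 10 arrays was most like that of each receptor were found by the root mean square difference of log2 values after each gene was centred on its own mean, over 10524 other genes. This is a description, and the arrays compared share their groups. For Ctla4 these were Il1r2, a decoy receptor for interleukin 1, at 0.22 and Marcksl1 at 0.28, where Ctla4 itself varied by a root mean square of 0.94. For Cd200, which varied by 0.66, they were Vwa5a at 0.19 and Dlg3 at 0.20. For Cd226, which varied by 0.47, they were Fanci, a gene of DNA crosslink repair, at 0.10 and Il13, a type 2 cytokine, at 0.11. For Btla, which varied by 0.41, they were Ppm1k at 0.11 and Zfp763 at 0.12. For Cd96 they were Gimap7 at 0.07 and Tfb1m at 0.08, and for Cd28 Llgl2 at 0.08 and Rapgef2 at 0.09, where the receptors varied by 0.27 and 0.26. Il1r2 averaged 6.19 in CD49b+ and 7.74 in CD25+ cells, against 5.61 in CD4+ cells of injected and 5.99 in those of naive mice, which is the order of Ctla4.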

How the data were processed

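CD4+ T cells were purified with magnetic beads and sorted, and 100 ng of RNA was labelled for each array, per the labels' protocols. The submitters' processing notes name GCRMA and Affymetrix Expression Console (1.2.1) for the deposited log2 values of 45141 probe sets; whether the authors normalized the arrays jointly is not stated there. Without 104 control probe sets, 28898 of 45037 had 1 gene symbol, 551 several and 15588 none; 28689 matched the current gene table by gene number. A gene was represented by its probe set with the highest mean and tested where at least 2 arrays exceeded their 50th percentile. One fit with limma 3.58.1 in R 4.3.3, with a mean for each of 4 groups and 6 residual degrees of freedom, checked on simulated data, gave two-sided p-values, adjusted by Benjamini-Hochberg over 11037 genes. Array number sets the precision, with a median standard error of 0.099 to 0.121.

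Correlations of same-numbered arrays ran from -0.209 to 0.641, and all 3 exceeded 0.1 (0.158, 0.366 and 0.641) between CD49b+ and CD25+ cells, so the numbers were taken to pair arrays in that comparison; the others have only 2 pairs. Alternatives were other filters, scalings, priors, probe set rules, array weights, a 2-fold threshold, fewer arrays and naive CD4+ cells as comparator. The receptors, lists and the rule for named genes (the receptors; up to 3 called genes of a list with the greatest change; Icos, Pdcd1 and Lag3; the 2 genes most like each receptor) were chosen with earlier results of these data known. Marker genes of cell types, Foxp3 and Il2ra are named as checks.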

Additional observations from a re-analysis of the deposited data

Results flagged for a closer look

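For 4 receptor genes the effect against CD4+ cells of injected mice differed between the subsets, by limma's test of CD49b+ minus CD25+ cells, in which the shared CD4+ arrays cancel. That test did not use the replicate number as a block, although same-numbered arrays of these subsets deviated together. With the block these 4 genes were still called. The difference between the effects was -1.58 for Ctla4 (adjusted p = 0.00417), -1.55 for Cd200 (adjusted p = 5.25e-06), -0.58 for Btla (adjusted p = 0.00574) and -0.27 for Cd96 (adjusted p = 0.0306). For each of the 4 genes, all 3 CD49b+ arrays lay below all 3 CD25+ arrays. The Cd96 difference was no longer called when any 1 of 5 of these 6 arrays was left out (adjusted p = 0.056 to 0.0976) or in a fit of the 6 arrays alone (adjusted p = 0.0687). With 2 or 3 arrays a group, no formal outlier test of single values was made.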

How the results depend on the processing

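Groups of 2 or 3 arrays limit the precision, and levels near the array medians may be near background. Leaving out single arrays gave 4 to 4 receptor genes called in CD25+ against CD4+ cells, 3 to 4 in CD49b+ against CD25+, 3 to 4 in CD49b+ against CD4+ and 0 to 0 in CD4+ cells of injected against naive mice. A fold of at least 2 left 2, 2 and 0 in the first 3 of these. In the last, 1 gene, Cd200, was called with the 70th percentile filter (adjusted p = 0.0499), centring (0.0477), trend and robust (0.0448), array weights (0.0298) and the replicate block (0.0432). The replicate block also called Ctla4 in CD49b+ against CD4+ cells (0.99, adjusted p = 0.00102), where the numbers were not shown to pair arrays, and changed no other receptor call beyond Cd28 in CD49b+ against CD25+ cells. Crossing the numbers, chosen after seeing the data, left 1 gene called of 6 and 526 of all genes. Cd96 in CD49b+ against CD25+ cells was lost with only these 6 arrays (adjusted p = 0.0687) and with both arrays numbered 3 left out (0.129). Cd226 was not tested under the 70th percentile filter. With CD4+ cells of naive mice as comparator, Pdcd1 turned to -1.05 in CD49b+ and -0.36 in CD25+ cells, and Ptpn11 to -0.35 (adjusted p = 0.00996) and -0.35 (adjusted p = 0.0141), and the calls of Lgals9 and Lrba against CD4+ cells were lost. The cause was not tested.

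Over all genes, calls numbered 5892, 4261, 3297 and 153 in CD49b+ against CD4+, CD25+ against CD4+, CD49b+ against CD25+ and CD4+ injected against naive cells. They numbered 9123 and 7583 in the first 2 with no filter. At 2-fold or more they numbered 1066, 711, 562 and 68 of the 11037 genes tested, where 0, 2 and 2 receptor genes were left in the first 3. In the second, the 70th percentile filter gave 2500, and in the first 2 the share of calls that were higher was 38.6% and 34.3% with no filter and 69.4% and 72.0% with that filter. In the second, leaving out CD4+ replicate 1 of injected mice gave 2818. In the last, 328 were called with array weights, 377 with the replicate block, 82 over every probe set, 0 with the 4 arrays alone and 16 to 116 without single arrays.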
